A study of Mus musculus with 12 samples.

Results

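The antibody peaks described here are those that the authors annotated to a 5'UTR, the stretch of a transcript between its first base and the start codon, in limb buds of Mettl14 cKO and cHet mouse embryos. They were all peaks with that annotation in the 2 deposited peak lists, which came to 2287 of 46758 peaks (4.89%) in the Mettl14 cKO list and 2043 of 41196 peaks (4.96%) in the cHet list. The peaks lay in 1985 genes in the cKO list and 1804 genes in the cHet list, with 2609 genes in either and 1180 in each. Limb buds of E12.5 embryos were studied by m6A-seq, which sequences the fragments bound by an antibody against N6-methyladenosine (m6A) beside untreated input RNA. The cKO embryos were Mettl14 flox/flox, with both alleles conditional, and the cHet controls were Mettl14 wt/flox, so the floxed allele was present in both genotypes. The 12 libraries were 3 biological replicates each of cKO input, cKO IP, cHet input and cHet IP. The labels do not name the Cre line or the floxed exons, and they do not say whether a replicate pooled several embryos, so p-values measure the spread between these samples.

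Mettl14 is the partner that Mettl3 needs to bind and methylate RNA, and the complex places most m6A near stop codons and in long internal exons. The first transcribed base after the cap can carry a related mark, m6Am, when that base is an adenosine. It is written by another enzyme, Pcif1, which does not need Mettl14, and antibodies against m6A also recognise it. An antibody peak over a 5'UTR can therefore come from either modification, and the peak lists do not separate them.

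The first bases of 8 transcripts whose 5'UTR peaks are described in the following paragraphs are shown because the first base decides whether a transcript can carry cap m6Am. The sequences are RefSeq windows on GRCm38.p6, 30 bases each, read 5′ to 3′. The isolated capital marks the annotated first transcribed base, with 5 bases before it, and GGAC in capitals marks the core of the m6A consensus. Ctnnd1, Hand2, Smad6, Ppp1r15a and Emp3 begin with A, and Tfe3, Ahdc1 and Jun begin with G.
Ctnnd1, chr2:84650716-84650745, minus strand: ctgccAgatcagtttgtcaccacccaggct
Hand2, chr8:57320978-57321007, plus strand: gatgtAgctgtacatggagatcttgctggg
Smad6, chr9:64022035-64022064, minus strand: tgtctAgactggcatatgatgggaggcagc
Ppp1r15a, chr7:45526244-45526273, minus strand: agcacAgcgccgcgtcagggtataaaagcc
Emp3, chr7:45920825-45920854, minus strand: tctgcAgtcaggtcgggtgaGGACcagaga
Tfe3, chrX:7762656-7762685, plus strand: ccagtGtggtcacttcctgtggagtttccc
Ahdc1, chr4:133011501-133011530, plus strand: gttccGgatggtgagcagcgaaggtaaggc
Jun, chr4:95052198-95052227, minus strand: taagtGttgagctcaggctggataaGGACt
The cKO peaks of Hand2, Ppp1r15a and Jun begin exactly at the RefSeq start shown. Those of Tfe3, Ahdc1 and Smad6 begin 1, 4 and 5 bases downstream of it, that of Emp3 45 bases downstream, and that of Ctnnd1 25 bases upstream.

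Expression was given as FPKM (fragment counts corrected for gene length and for library size) for 31723 genes of each input library. The columns summed to 237288 to 255907 FPKM in cKO and 261691 to 275299 FPKM in cHet, so the totals did not overlap between genotypes. The number of reads behind each value was not recovered, so depth per library is unknown. Mettl14 had 2.67, 3.07 and 2.63 FPKM in cKO inputs, against 5.08, 4.54 and 4.39 FPKM in cHet inputs. It reached 59.8% of the cHet level in cKO and fell by 0.58 on the log2 scale (SE 0.0791, limma adjusted p = 0.00289). Summed markers of limb mesenchyme ran from 535 to 630 FPKM in cKO and from 405 to 420 FPKM in cHet, with 6 of 9 tested markers higher and none of the 10 listed at 0 in all libraries. Summed skeletal muscle markers ran from 330 to 522 FPKM in cKO and from 532 to 592 FPKM in cHet, with 7 of 13 lower. Summed epidermal markers ran from 214 to 226 FPKM in cKO and from 185 to 206 FPKM in cHet, with 3 of 10 higher and 1 lower. Of tested endothelial markers 2 of 11 were lower, and of Schwann and neural crest markers 1 of 6. Over all tested genes 18.7% were higher and 17.5% lower, so the endothelial and Schwann counts were near the share of all genes. Erythroid markers overlapped between the genotypes, at 8167 to 17559 FPKM in cKO and 9857 to 13820 FPKM in cHet. In such bulk RNA, fewer cells of a type and less RNA per cell cannot be told apart, and the part of cell composition in the input changes given here was not tested.

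The 5'UTR peaks were weaker than the peaks over stop codons and close to the average peak. Each peak carries the authors' own log2 enrichment of IP over input, and with 1 list per genotype no peak value has a replicate or a test. The median log2 enrichment of 5'UTR peaks was 1.56 in the cKO list (quartiles 1.23 and 2.10) and 1.68 in the cHet list (quartiles 1.36 and 2.28). Stop codon peaks had medians of 2.04 in the cKO list and 2.66 in the cHet list, and all peaks had 1.59 in the cKO list and 1.87 in the cHet list. Of the 5'UTR peaks, 93.8% in the cKO list and 92.6% in the cHet list had an adjusted p under 0.001 in the authors' deposited table. Most genes had a single 5'UTR peak, 1720 in the cKO list and 1589 in the cHet list. The most in any gene was 4, in Jmjd1c (a histone demethylase family gene) in the cKO list and in Usp29 (a deubiquitinase) in the cHet list.

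Several of the strongest 5'UTR peaks stood in both lists, among them those of Syncrip, Rsrc1, Ctnnd1, Tfe3, Ptprd and Ankrd28. Syncrip, an hnRNP-type RNA-binding protein, had the highest enrichment of the cKO list among genes averaging 1 FPKM or more, with log2 values of 6.51 in cKO and 6.16 in cHet. Its cKO peak covers chr9:88481036-88482566 on the minus strand (mm10) and begins 8 bases after the annotated gene start. Rsrc1, which encodes an arginine- and serine-rich splicing-related protein, had 5.56 in cKO and 5.46 in cHet. Ctnnd1 (p120 catenin, which stabilises cadherins) had 5.12 in cKO and 4.67 in cHet, at the gene start (chr2:84648487-84650765, minus strand). Tfe3, a transcription factor of lysosome genes, had 5.27 in cKO and 4.35 in cHet, over chrX:7762662-7763086 on the plus strand. Ptprd, a receptor tyrosine phosphatase, had 6.08 in cKO and 6.39 in cHet, and Ankrd28, a protein phosphatase 6 regulatory subunit, had 5.38 in cKO and 6.22 in cHet. None of these 6 genes passed the test for a change of transcript level. Syncrip had 30.4, 31.8 and 34.5 FPKM in cKO inputs, against 39.2, 33.7 and 27.7 FPKM in cHet inputs. Ctnnd1 had 28.5, 27.0 and 30.8 FPKM in cKO, against 30.5, 30.2 and 26.3 FPKM in cHet, and for both genes the cHet range held most or all of the cKO values.

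The share of cKO 5'UTR peaks without an overlapping cHet peak was above that of all cKO peaks, and the share of cHet 5'UTR peaks without a cKO peak was close to that of all cHet peaks. A counterpart was any peak of the other list, of any annotation, with at least 1 shared base on the same strand. Of 2287 cKO peaks, 689 (30.1%) had no counterpart, against 20.4% of all cKO peaks. Of 2043 cHet peaks, 265 (13%) had none, against 12.6% of all cHet peaks. For stop codon peaks the shares without a counterpart were 3.38% in the cKO list and 5.61% in the cHet list, and for intronic peaks 49.2% in the cKO list and 23.5% in the cHet list. Exonic peaks were close to 5'UTR peaks, at 30.4% in the cKO list and 15.0% in the cHet list. The cKO 5'UTR peaks without a counterpart were weaker and shorter than those with one. Their median log2 enrichment was 1.30, against 1.70 for those with a counterpart, and their median span was 400 bases against 856. The median input level was 7.38 FPKM for genes of cKO peaks without a counterpart and 7.47 FPKM with one. In the cHet list it was 4.77 FPKM without a counterpart and 8.14 FPKM with one. The shares depend on the overlap rule, because requiring 50% of both peaks to be shared left 47.5% of cKO and 56.6% of cHet 5'UTR peaks with a counterpart. Spans are genomic and hold introns, so 34.7% of cKO and 34.2% of cHet 5'UTR peaks span over 2000 bases.

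The strongest peaks found in a single list marked genes of varied function. Gpr157, an orphan G-protein-coupled receptor, had a log2 enrichment of 6.38 in the cKO list, over 225 bases at chr4:150087515-150087739, and no cHet counterpart. Its input level was 1.22, 1.39 and 1.42 FPKM in cKO, against 0.763, 0.791 and 0.864 FPKM in cHet, with no overlap, and it rose by 0.37 on the log2 scale (limma adjusted p = 0.0114). Btbd7, a BTB-domain regulator of epithelial dynamics, had 4.59 in the cKO list and rose by 0.43 (adjusted p = 0.00922), and Add1, which encodes the cytoskeletal protein adducin, had 4.46 there with input values of 22.7 ± 1.10 FPKM in cKO and 22.9 ± 0.833 FPKM in cHet (SD, n = 3 each). In the cHet list alone, Ube2q2 (a ubiquitin-conjugating enzyme) had 4.21 and Mob2 (a kinase-binding protein) had 3.92, and neither passed the input test.

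Among peaks with a counterpart, 5'UTR enrichment was slightly lower in cKO, by less than at stop codons. The difference was close to that of 3'UTR and intronic peaks. The median difference of log2 enrichment, cKO minus cHet, was -0.12 over 1598 cKO 5'UTR peaks (quartiles -0.59 and 0.23), with 942 (58.9%) lower in cKO. It was -0.18 over all 37197 paired peaks, -0.49 over 6866 stop codon peaks and -0.0076 over 3700 start codon peaks. For 14400 3'UTR peaks it was -0.14 and for 1145 intronic peaks -0.12. A loss of at least 1 log2 unit was seen for 216 of the 1598 5'UTR peaks (13.5%), against 18.5% of all paired peaks, and a gain of that size for 36 (2.25%), against 1.11% of all. The sources used here do not say how IP was scaled to input, so a shift common to all peaks cannot be read, and the contrast between annotations is what these values show. That contrast held for stop codons under all 5 ways of pairing, with stop codon medians from -0.56 to -0.21 and 5'UTR medians from -0.12 to -0.055, where each setting filtered the largest-overlap pairs. Against all peaks it did not hold, because among pairs with spans under 1000 bases the 5'UTR median was -0.092 and the median of all pairs -0.037.

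**Figure D1:**
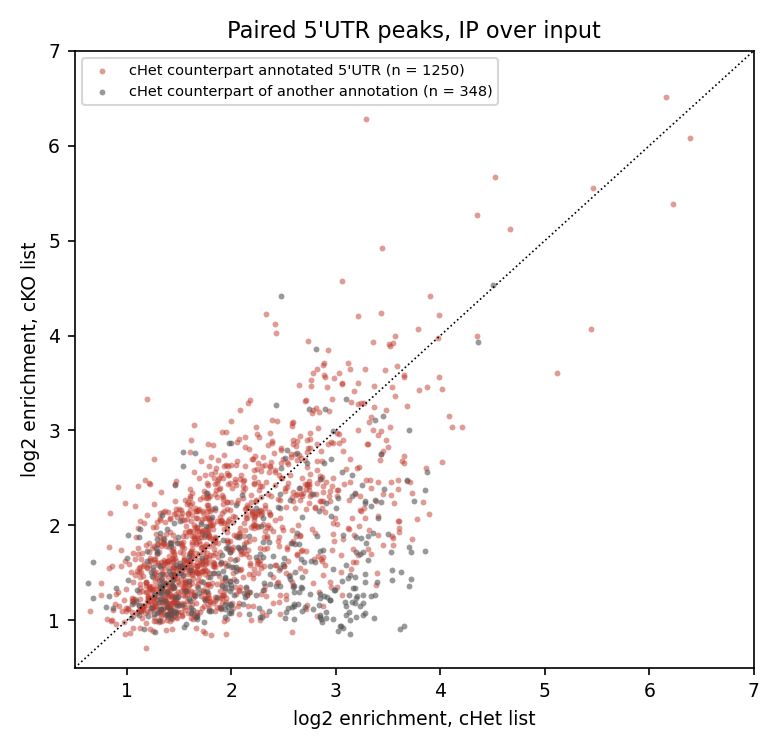
Each point is a cKO 5'UTR peak with a counterpart, its log2 enrichment of IP over input in the cKO list on the vertical axis and that of its cHet counterpart on the horizontal axis, and the dotted line marks equal values. The 1250 pairs whose counterpart is also annotated 5'UTR (red) lie around the line, and many of the other 348 (grey) lie below it.

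**Figure D2:**
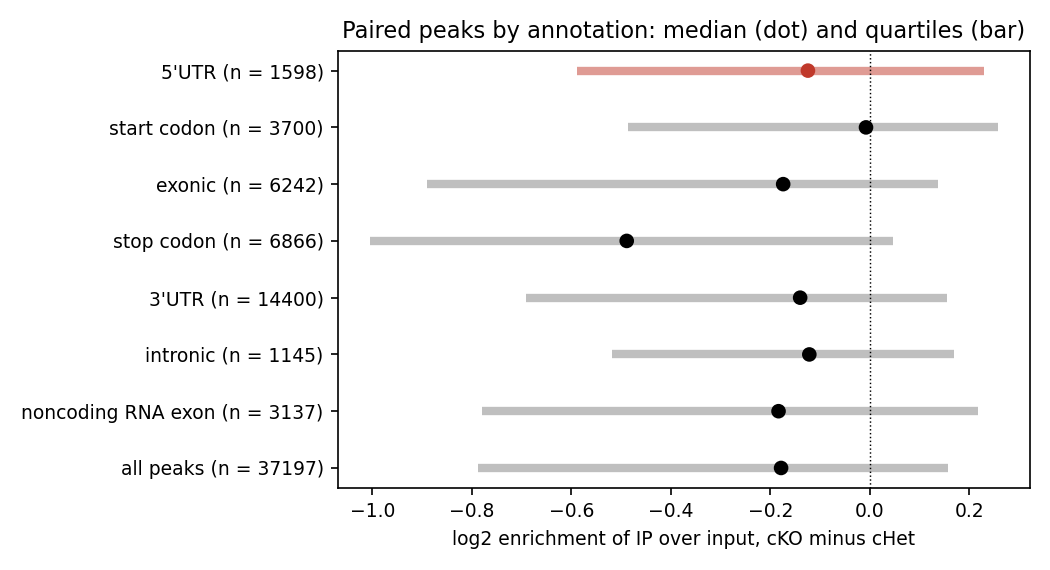
Difference of log2 enrichment, cKO minus cHet, of paired cKO peaks by annotation, with dots for medians, bars for quartiles and n for the number of pairs. The 5'UTR median is -0.12 and the stop codon median -0.49.

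Part of the lower 5'UTR values came with counterparts of another annotation. For the 1250 cKO 5'UTR peaks whose cHet counterpart was also annotated 5'UTR, the median difference was -0.058. For 206 peaks it was a start codon peak, with a median difference of -0.58, and the median span was 465.5 bases in cKO and 2175 bases in cHet. For 65 peaks it was a stop codon peak, with a median difference of -1.53 and median spans of 500 bases in cKO and 8860 bases in cHet. Those pairs set a short 5'UTR peak of cKO against a long cHet peak that also covers other regions. Taken from the side of the 1778 paired cHet 5'UTR peaks, the median difference was -0.015, and 383 of their cKO counterparts were start codon peaks with a median span of 4935 bases in cKO against 600 bases in cHet.

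Within the same gene, the 5'UTR peak had lost less enrichment than the stop codon peak in most cases. In 689 genes with both kinds of paired peak, the median difference, cKO minus cHet, was -0.15 at the 5'UTR and -0.70 at the stop codon, and the 5'UTR value was the higher in 473 genes (68.7%). In 205 genes the 5'UTR difference was 0 or above and the stop codon difference below 0, while 67 genes showed the reverse. Both peaks shared a cHet counterpart in 48 of the genes. Restricted to 480 genes whose counterparts carried the same annotation as the cKO peak, the medians were -0.072 at the 5'UTR and -0.67 at the stop codon, and the 5'UTR value was the higher in 360 genes (75%). Against start codon peaks of the same gene the gap was smaller, with -0.19 at the 5'UTR and -0.29 at the start codon over 283 genes. Compared with 3'UTR peaks of the same gene, the 5'UTR value was the higher in 535 of 988 genes (54.1%). The 2 peaks of a gene share its input reads, and the genes share the 2 lists, so these counts are a description.

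**Figure D3:**
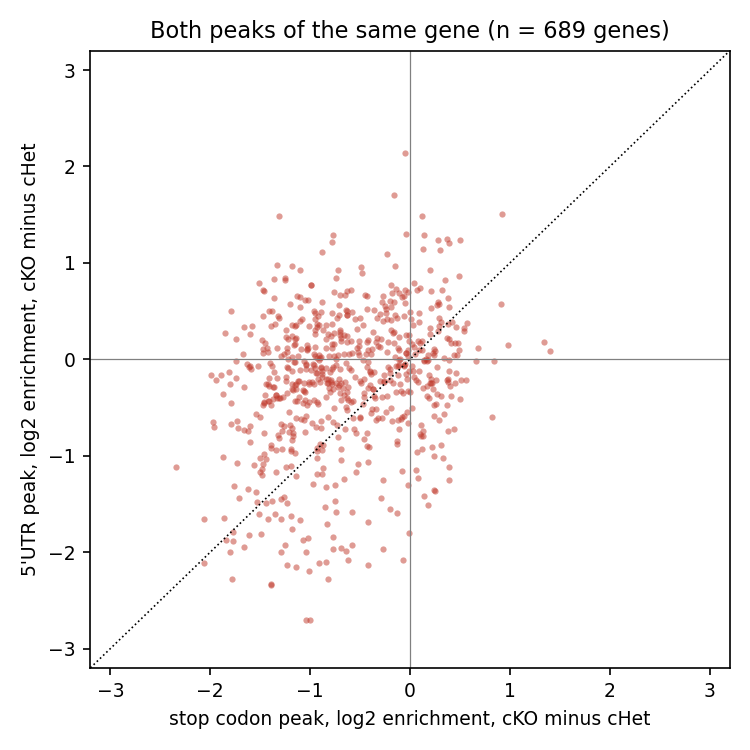
Each point is 1 of 689 genes, with the cKO minus cHet difference of log2 enrichment at its 5'UTR peak on the vertical axis and at its stop codon peak on the horizontal axis, and the dotted line marks equal differences. The points above the line are the 473 genes whose 5'UTR value was the higher.

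Peaks that begin at the gene start had a higher median enrichment, and a larger share with a counterpart, than those further in. In the cKO list 441 of the 5'UTR peaks (19.3%) began exactly at the annotated gene start, with a median log2 enrichment of 1.77, and 394 of the cHet list (19.3%) did so, with 1.91. Peaks that began over 500 and up to 2000 bases after it had medians of 1.37 in the cKO list and 1.57 in the cHet list. Of the peaks at the gene start, 81.9% in the cKO list and 91.6% in the cHet list had a counterpart, compared with 63.7% in the cKO list and 82.9% in the cHet list for those over 100 and up to 500 bases in. The median difference, cKO minus cHet, was -0.065 for cKO peaks at the gene start, -0.052 at 1 to 100 bases, -0.23 at up to 500 bases, -0.27 at up to 2000 bases and -0.16 beyond. Anchored on the cHet peaks this order was not seen, with -0.087 at the gene start and 0.023 at up to 500 bases. Distances are genomic, so an intron in the 5'UTR adds to them.

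**Figure D4:**
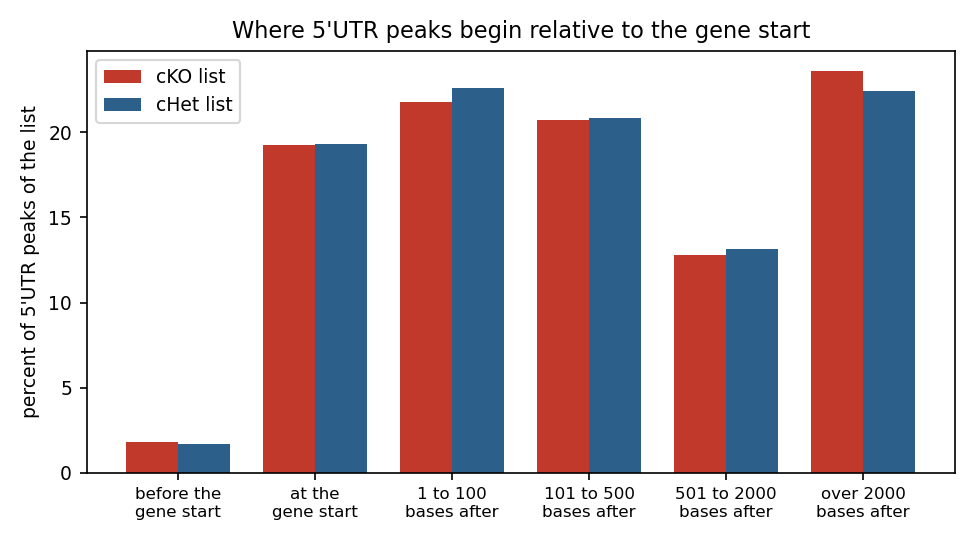
Bars give the percentage of the 5'UTR peaks of the cKO list (red) and the cHet list (blue) that begin in each class of genomic distance from the annotated gene start. Both lists place 19.3% of them at the gene start.

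The annotated first base was A for about as large a share of these peaks as of RefSeq starts in general. Gene symbols matched a RefSeq window for 1859 of 2287 cKO peaks and 1651 of 2043 cHet peaks, and 532 cKO and 456 cHet peaks began within 50 bases of that start. The first base was A in 32.1% of the cKO windows and 30.3% of the cHet windows, against 27.9% of 12000 windows of genes averaging 1 FPKM or more and 34.4% of all 32851 windows. Among paired cKO peaks near a start, the median difference, cKO minus cHet, was 0.059 for the 135 that begin with A, -0.058 for the 174 with G, -0.18 for the 51 with C and 0.048 for the 34 with T. The letters GGAC stood on the sense strand in the first 50 transcribed bases of 19.9% of the cKO windows, 18.6% of the cHet windows and 20.2% of the windows of expressed genes (36.8%, 33.8% and 37.4% on either strand). Annotated starts can differ from those used in limb buds, and the window of 50 bases says nothing of sites further in.

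Itsn1, Pxdc1, Zfp507 and Septin11 were among the largest gains of enrichment, cKO over cHet. Itsn1, a scaffold of endocytosis, had a log2 enrichment of 6.28 in cKO and 3.29 in cHet, over a peak that begins 25 bases after the gene start. Zfp507, a zinc finger protein, had 4.23 in cKO and 2.33 in cHet. Septin11, a filament-forming GTPase of the cytoskeleton, had 4.03 in cKO and 2.42 in cHet, and Pxdc1, a protein with a lipid-binding PX domain, had 4.42 in cKO against 2.48 in a cHet start codon peak. The transcript of Itsn1 was level, with 4.16, 4.35 and 4.35 FPKM in cKO inputs and 4.22, 4.50 and 4.39 FPKM in cHet inputs, which overlap. The largest losses paired unlike peaks. Wdr53, a WD-repeat protein, had 0.91 in cKO over 125 bases against 3.61 in a cHet peak annotated to the stop codon. Nck1, an adaptor of receptor tyrosine kinases, had 1.44 in cKO and 3.72 in a cHet stop codon peak. Where both peaks were annotated 5'UTR, Tet3 (an oxidase of 5-methylcytosine) had 2.12 in cKO and 3.89 in cHet, and Ache (acetylcholinesterase) 4.07 in cKO and 5.44 in cHet.

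At the transcript level, more genes with a 5'UTR peak rose than fell in cKO. Of 2609 genes, 2608 were in the FPKM table and 2405 averaged 1 FPKM or more and were tested. Adjusted p was under 0.05 with a higher cKO level for 559 (23.2%), against 18.7% of all 13575 tested genes, and with a lower level for 400 (16.6%), against 17.5%. The genotypes did not overlap for 56.1% of them, against 51.2% of all. The median log2 change was 0.042, and -0.0027 over all tested genes. Changes are cKO over cHet on log2(FPKM + 1), tested with limma and Benjamini-Hochberg adjustment over all 13575 genes. With the libraries scaled to equal FPKM totals the median of all genes moved to 0.10, and 835 of these genes were higher and 206 lower, a split of 80.2% higher against 58.3% as deposited. Over all called genes the same scaling gave 73.6% higher against 51.6%. Without cHet replicate 2 the counts were 332 higher and 206 lower, and without cKO replicate 2 they were 365 higher and 232 lower.

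Risen genes outnumbered fallen ones where a stop codon peak was also present, and not where it was absent. Of 1427 tested genes with peaks of both kinds, 406 (28.5%) were higher and 214 (15.0%) lower in cKO, with a median log2 change of 0.080. Of 978 with a 5'UTR peak but no stop codon peak in either list, 153 (15.6%) were higher and 186 (19.0%) lower, with a median of -0.013. Of 5572 with a stop codon peak but no 5'UTR peak, 22.8% were higher and 17% lower. Here and below, a gene has the peak in both lists if any of its 5'UTR peaks has a counterpart of any annotation (1877 genes). It has the peak in a single list if none has a counterpart and only 1 list holds a 5'UTR peak of it. Genes with the 5'UTR peak in a single list leaned higher like the members as a whole. Of 488 tested genes with it only in the cKO list, 112 (23.0%) were higher and 74 (15.2%) lower, and of 148 with it only in the cHet list, 34 (23.0%) were higher and 26 (17.6%) lower, against 18.7% higher and 17.5% lower over all tested genes. The difference between these gene classes was not tested.

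Among genes with the peak in both lists, Snhg4, Bcl9l, Il18bp and Ahdc1 were among the largest rises in cKO, and Dcn, Gng3 and Lum were the 3 largest falls. Bcl9l, a cofactor of beta-catenin, had 22.9, 24.8 and 25.5 FPKM in cKO, against 5.80, 7.45 and 10.2 FPKM in cHet. It rose by 1.55 on the log2 scale (SE 0.171, limma adjusted p = 0.00167), with log2 enrichments at its 5'UTR of 2.59 in cKO and 2.82 in cHet. Ahdc1, an AT-hook DNA-binding protein, averaged 11.9 ± 0.540 FPKM in cKO and 3.81 ± 1.17 FPKM in cHet (SD, n = 3 each), and rose by 1.45 (adjusted p = 0.00169). Il18bp, the secreted inhibitor of interleukin 18, averaged 7.59 ± 0.0314 FPKM in cKO and 1.99 ± 0.280 FPKM in cHet (SD, n = 3 each). Rai1 (a nuclear regulator of circadian genes) rose 2.48-fold and Lcmt2 (a tRNA-modifying enzyme) 2.82-fold. In each of these 5 genes all cKO values lay above all cHet values. Snhg4, a host gene of small nucleolar RNA, had the largest rise but a wide spread, with 5.19, 1.06 and 11.1 FPKM in cKO, against 0.0383, 0.872 and 0.0258 FPKM in cHet (log2 change 2.09, SE 0.614, adjusted p = 0.0369). The call of Snhg4 was lost under 7 of 13 alternatives, with adjusted p up to 0.110.

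Dcn and Lum encode decorin and lumican, small leucine-rich proteoglycans of the collagen matrix. Dcn had 5.18, 3.52 and 4.39 FPKM in cKO, against 13.2, 16.1 and 17.9 FPKM in cHet (log2 change -1.64, SE 0.146, adjusted p = 0.000923). Lum averaged 35.0 ± 6.54 FPKM in cKO and 94.9 ± 9.37 FPKM in cHet (SD, n = 3 each). Gng3, a gamma subunit of G proteins, had 1.02, 0.959 and 0.453 FPKM in cKO, against 4.53, 4.09 and 4.11 FPKM in cHet (log2 change -1.55, SE 0.135, adjusted p = 0.000887). The genotypes were apart in every library for these 3 genes. Igf1, a growth factor, had 7.10, 4.76 and 5.78 FPKM in cKO, against 12.4, 10.6 and 11.3 FPKM in cHet, and fell to 51.5% of the cHet mean (adjusted p = 0.00366). Enpp2 (autotaxin, which makes lysophosphatidic acid) fell to 47.2%, Ripk3 (a kinase of necroptosis) to 43.4%, Cited1 (a transcriptional coactivator) to 47.8% and Emp3 (a membrane protein of the claudin superfamily) to 51.7% of the cHet mean. Their 5'UTR peaks did not move one way with the transcript. The log2 enrichment of Cited1 was 2.45 in cKO and 1.21 in cHet, that of Emp3 1.27 in cKO and 1.77 in cHet, and that of Dcn 1.20 in cKO and 1.26 in cHet.

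**Figure D5:**
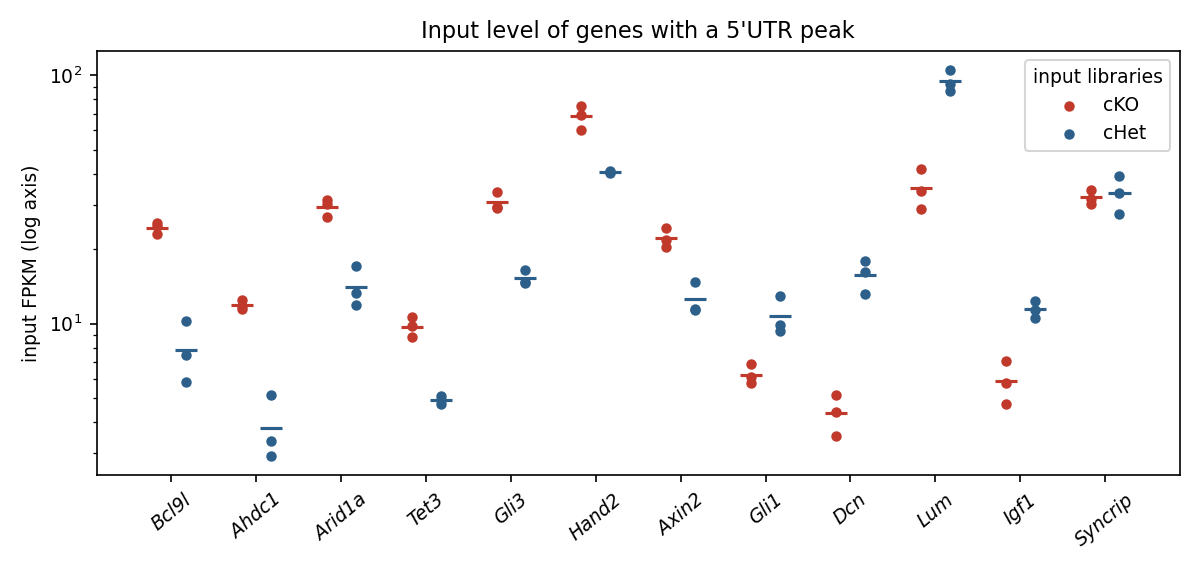
Input FPKM on a log axis of 12 genes with a 5'UTR peak, with 1 point per library, cKO (red) left of cHet (blue), and a line at each mean. The genotypes do not overlap for any gene except Syncrip.

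Of 22 genes of the m6A and cap m6Am machinery, 7 (31.8%) had a 5'UTR peak, against 17.7% of all tested genes. Besides Mettl14, these were the writer subunits Wtap and Rbm15, the cap enzyme Pcif1, the demethylase Alkbh5 and the RNA-binding proteins Igf2bp2 and Igf2bp3. Of the 7, 3 rose and 2 fell, where 11 of the 22 tested genes of the list rose and 4 fell. The falls were the targeted gene Mettl14 and Igf2bp2, whose call was lost under 3 of 14 alternatives. The rise of Alkbh5 was lost under 8 of 14. The shares over all tested genes were 18.7% higher and 17.5% lower. Wtap, which anchors the writer complex in nuclear speckles, had 29.6, 30.1 and 31.6 FPKM in cKO, against 25, 21.1 and 19.4 FPKM in cHet, and rose by 0.47 (adjusted p = 0.0101). Rbm15, which recruits the complex to RNA, had 9.36, 10.6 and 11.9 FPKM in cKO, against 4.07, 3.92 and 3.02 FPKM in cHet, and rose by 1.32 (adjusted p = 0.000936). All 3 cKO values lay above all cHet values for both genes. The Rbm15 peak had a log2 enrichment of 1.74 in a cKO start codon peak and 3.88 in the cHet 5'UTR peak. Pcif1 averaged 10.8 ± 0.188 FPKM in cKO and 8.76 ± 1.28 FPKM in cHet (SD, n = 3 each; adjusted p = 0.0636), and its 5'UTR peak (1.54, at the gene start) was in the cHet list alone. The cHet 5'UTR peak of Mettl14 had 1.66, and its cKO counterpart, annotated to the start codon, 1.71.

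Genes of limb patterning with a 5'UTR peak were mostly higher in cKO. Of 36 genes listed, 12 had such a peak, and 8 of these rose and 2 fell. In the whole list 17 of the 32 tested genes rose and 3 fell. The shares over all tested genes were 18.7% higher and 17.5% lower. Gli3, the transcription factor that restrains hedgehog targets in the limb, had 29.2, 29.6 and 34.0 FPKM in cKO, against 14.6, 14.6 and 16.4 FPKM in cHet (log2 change 0.98, SE 0.0810, adjusted p = 0.000795). Hand2, which sets posterior identity, had 60.1, 69.4 and 75.6 FPKM in cKO, against 40.4, 40.9 and 41.1 FPKM in cHet (log2 change 0.72, adjusted p = 0.00203). Both genes were higher in all 3 cKO libraries. Tbx5, which starts forelimb outgrowth, rose by 0.49, Hoxa9 by 0.67, Prrx2 by 0.48, and Fgf10, the mesenchymal growth factor of outgrowth, by 0.63. The hedgehog targets Gli1 and Ptch1 fell. Gli1 had 5.77, 6.85 and 6.07 FPKM in cKO, against 9.31, 9.85 and 12.9 FPKM in cHet (log2 change -0.68, adjusted p = 0.00690), and Ptch1 fell by 0.44 (adjusted p = 0.00370). The 5'UTR peaks of these genes differed in direction, with Hand2 at 2.68 in cKO and 3.63 in cHet, Tbx5 at 2.23 in cKO and 1.62 in cHet, and Gli1 at 2.44 in cKO and 1.97 in cHet on the log2 scale.

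Of 32 genes of the Gdf5, RUNX and BMP axis, 11 had a 5'UTR peak, and of the 10 tested 1 rose and 3 fell, where 4 of the 31 tested genes of the list rose and 9 fell and the shares over all tested genes were 18.7% higher and 17.5% lower. Smad7, an inhibitory Smad, had 9.25, 11.2 and 11.2 FPKM in cKO, against 4.19, 3.96 and 4.09 FPKM in cHet, with no overlap (log2 change 1.18, adjusted p = 0.000593). Smad6, the inhibitory Smad of BMP receptors, had 4.32 ± 0.339 FPKM in cKO and 3.72 ± 0.0313 FPKM in cHet (SD, n = 3 each; adjusted p = 0.0925), and its 5'UTR peak 2.62 in cKO and 3.23 in cHet. Runx2, the master factor of bone formation, fell, with 2.46, 2.01 and 1.98 FPKM in cKO, against 4.12, 3.54 and 3.79 FPKM in cHet (log2 change -0.61, adjusted p = 0.00322). Its 5'UTR peak began 78644 bases after the gene start. Fst, a secreted antagonist of activins, fell to 52.9% of the cHet mean, and its 5'UTR peak (1.37, at the gene start) was in the cKO list alone. Id4, an inhibitor of basic helix-loop-helix factors, fell by 0.32 (adjusted p = 0.0228), a call lost under 6 of 14 alternatives with adjusted p up to 0.0887. Bmpr1a, a BMP receptor, averaged 47.0 FPKM in cKO and 47.8 FPKM in cHet. Of 25 cartilage matrix and chondrocyte genes 1 had a 5'UTR peak, where the share was 17.7% over all tested genes. In the other gene lists the share ran from 20.4% to 36%. That gene was Sox6, a cofactor of Sox9, with log2 enrichments of 2.63 in cKO and 2.37 in cHet and input means of 3.61 FPKM in cKO and 4.01 FPKM in cHet (adjusted p = 0.216).

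Of 18 Wnt feedback and target genes 5 had a 5'UTR peak, and of the 4 tested 3 rose, Bcl9l, Axin2 and Lef1. Across the list 11 of the 16 tested genes rose and 1 fell, against 18.7% higher and 17.5% lower over all tested genes. The call of Lef1 was lost under 6 of 14 alternatives. Axin2, a feedback inhibitor of Wnt signalling, had 20.3, 21.7 and 24.2 FPKM in cKO, against 11.4, 11.5 and 14.7 FPKM in cHet, without overlap (log2 change 0.78, adjusted p = 0.00346). Ctnnb1, which encodes beta-catenin, averaged 221 FPKM in cKO and 223 FPKM in cHet.

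Most chromatin regulators with a 5'UTR peak rose in cKO. Of 11 with such a peak, 8 rose and none fell, against 19 risen and 2 fallen of the 32 tested genes of the list. For all tested genes the shares were 18.7% higher and 17.5% lower. Arid1a, a subunit of the BAF remodelling complex, had 26.9, 30.4 and 31.5 FPKM in cKO, against 11.8, 13.3 and 17.1 FPKM in cHet (log2 change 1.03, SE 0.131, adjusted p = 0.00235). Tet3 had 8.79, 9.82 and 10.6 FPKM in cKO, against 4.76, 4.91 and 5.09 FPKM in cHet (log2 change 0.86, adjusted p = 0.000910). Both genes were separated in every library. Arid1b rose by 0.67, the acetyltransferase Ep300 by 0.54, the H3K27 demethylase Kdm6b by 0.69 (a call lost under 4 of 14 alternatives) and the remodeller Chd4 by 0.38. The median difference of their paired peaks, cKO minus cHet, was -0.67 over 11 peaks, with log2 enrichments for Arid1a of 2.82 in cKO and 3.50 in cHet. The count of risen members was 5 without cHet replicate 2 and 5 without cKO replicate 2.

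Ribosomal protein genes with a 5'UTR peak were lower in cKO as deposited, and this did not outlast another scaling. Of 10 with such a peak, 8 fell and none rose, with a median log2 change of -0.30, against 31 fallen of the 49 tested genes of the list, while after quantile normalization none of the 10 passed and 3 of them (Rpl23, Rps24 and Rpl30) turned positive. With equal totals 4 fell, and without cHet replicate 2 it was 1. For comparison with this list and those below, 18.7% of all tested genes were higher and 17.5% lower as deposited. Rpl28 had 264, 230 and 224 FPKM in cKO, against 344, 352 and 352 FPKM in cHet (log2 change -0.55, adjusted p = 0.00363). Rpl7 had 347, 292 and 314 FPKM in cKO, against 449, 462 and 399 FPKM in cHet (log2 change -0.46, adjusted p = 0.0115). Neither gene overlapped between genotypes. Enrichment at their 5'UTRs was level, with a median difference of -0.00058 over 10 paired peaks, and Rpl7 at 1.72 in cKO and 1.73 in cHet on the log2 scale. Of 9 translation factors with a 5'UTR peak, 4 fell and 1 rose, where 11 of the 28 tested genes of the list fell and 1 rose, and after quantile normalization 1 fell and 1 rose. Pabpc1, the poly(A)-binding protein, averaged 88.8 ± 2.66 FPKM in cKO and 112 ± 1.17 FPKM in cHet (SD, n = 3 each), and Eif4g1, the scaffold of cap-dependent initiation, 73.9 ± 5.39 FPKM in cKO and 59.7 ± 1.68 FPKM in cHet. Of 7 oxidative phosphorylation genes with a 5'UTR peak, 5 fell and none rose, where 21 of the 26 tested genes of the whole list fell and 1 rose, and 2 of the 7 fell after quantile normalization or with equal totals. Atp5o, a subunit of ATP synthase, had 72.4, 70.3 and 71.3 FPKM in cKO, against 104, 112 and 98.2 FPKM in cHet (log2 change -0.54, adjusted p = 0.00199).

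Among stress genes and among growth-control genes with a 5'UTR peak, 1 of 6 rose and 1 of 6 fell. The shares over all tested genes were 18.7% higher and 17.5% lower. Of 6 heat shock and stress genes with such a peak, Dnajb1 rose (a call lost under 2 of 14 alternatives) and Ddit3 fell, where 2 of the 20 tested genes of the list rose and 5 fell. Ddit3, a factor of the unfolded protein response, had 4.01, 3.51 and 3.53 FPKM in cKO, against 5.47, 4.95 and 4.93 FPKM in cHet, without overlap (log2 change -0.39, adjusted p = 0.00810), and its peak 2.13 in cKO and 1.59 in cHet. Ppp1r15a, the phosphatase subunit that restores translation after stress, had 2.70 in cKO and 2.21 in cHet at a peak that starts on the annotated first base. Of 6 immediate early and growth-control genes, Mycn rose and Klf4 fell, but the call of Mycn was lost under 6 of 14 alternatives and that of Klf4 under 2 of 13, and with the replicate block or without cHet replicate 2 none of the 6 passed. The Jun peak, at the gene start, had 1.73 in cKO against 3.86 in a cHet peak annotated to the stop codon, and Myc had 1.89 in cKO and 2.62 in cHet with both peaks annotated 5'UTR. Of 9 splicing factors with such a peak, Ptbp1 alone passed the test, at 98.9 ± 3.58 FPKM in cKO and 113 ± 2.22 FPKM in cHet (SD, n = 3 each). The call of Ptbp1 was lost under 8 of 14 alternatives, and its peak had 3.71 in cKO and 2.88 in cHet. The number of the 9 with a positive change went up to 9 after quantile normalization, against 2 as deposited.

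Where the peak stood in a single list, the largest rises and the largest falls were each picked, so both directions appear by choice. Of 488 tested genes with it only in the cKO list, 2 called genes rose and 1 fell by at least 1 log2 unit. Of 148 with it only in the cHet list, 0 rose and 3 fell by as much. With the peak in the cKO list alone, Med18, a subunit of Mediator, had 12.6, 13.1 and 14.2 FPKM in cKO, against 4.41, 4.62 and 4.30 FPKM in cHet, and rose by 1.39 (adjusted p = 0.000310). Asxl3, a Polycomb-related protein, rose 2.84-fold, and Phax, an adaptor of small nuclear RNA export, rose by 0.86. The largest fall was in Zc3h11a, an mRNA export factor, to 18.8% of the cHet mean (adjusted p = 0.0121), for 1 of 2 gene identifiers under that symbol, between which reads may be split. Plagl1, an imprinted zinc finger factor, fell by 0.69 (adjusted p = 0.00272). With the peak in the cHet list alone, Cdh11, a mesenchymal cadherin, had 113, 117 and 128 FPKM in cKO, against 71.3, 65.9 and 60.6 FPKM in cHet, and rose by 0.85 (adjusted p = 0.00115). Pelo, a ribosome rescue factor, rose by 0.86. Angptl1, an angiopoietin-like secreted protein, had 7.54, 4.34 and 5.38 FPKM in cKO, against 14.4, 14.8 and 16 FPKM in cHet, and fell by 1.28 (adjusted p = 0.00234). Chodl, a lectin-type membrane protein, and Cbln4, a secreted cerebellin, fell to 29.2% and 19.1% of the cHet mean. All of these genes had cKO and cHet values without overlap.

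Across genes, a larger loss of 5'UTR enrichment went weakly with a higher input level in cKO. Spearman's rho between the enrichment difference and the input change was -0.24 over 1484 paired 5'UTR peaks, -0.50 over 5805 stop codon peaks and -0.28 over 30848 peaks of all annotations. It was -0.28 over 3472 start codon peaks and -0.17 over 12507 3'UTR peaks. Enrichment is a ratio over the same input RNA, so both measures share the input reads, and peaks of 1 gene share its change.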

How the data were processed

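Fastp, HISAT2 and the mm10 build are named in the submitters' processing notes; the sources used here do not name the peak caller or say how replicates were combined and IP scaled to input. Per the file headers, the authors deposited FPKM per gene for 6 input libraries, and 1 peak list per genotype with a log2 enrichment, a p-value and its adjusted p-value per peak. Peak annotation, span and gene are other columns that the authors deposited. Deposited peak starts count from 0 and were raised by 1. Values per IP library were not used here.

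Input libraries were compared with limma 3.58.1 (R 4.3.3; lmFit, eBayes with trend) on log2(FPKM + 1), over 13575 genes averaging 1 FPKM or more, two-sided, called at Benjamini-Hochberg adjusted p under 0.05; the pseudocount understates changes of low genes. The fit was tested on simulated data. Folds and percentages of the cHet mean are ratios of mean FPKM. Peaks were paired by largest overlap on the same strand with Python 3.11.15 and pandas 2.3.3. The members and the 12 gene lists (335 genes, all found) were chosen with earlier results of these data known. Genes were named by a rule: highest enrichments per list, highest without a counterpart, largest differences, largest input changes, list members, Mettl14 and Pcif1; some genes the rule names are not reported here. Same-numbered libraries did not deviate together (r = -0.08, 0.04 and -0.20). These values rest on deviations from means of 3 libraries and cannot exclude a pairing. The labels state none, so the main fit used none. Other pseudocounts, filters, scalings, a replicate block, left-out replicates and other pairing rules were tried. RefSeq windows were matched by symbol. Peak sequences were not searched, since no genome sequence was used.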

Additional observations from a re-analysis of the deposited data

How the results depend on the processing

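Of 72 alternatives run on the main counts, shares and medians, 46 kept the value within the set margin and 26 moved it. The replicate block gave 2889 called genes against 4912, with 354 members higher and 207 lower in cKO. The labels do not say whether same-numbered libraries belong together. Equal FPKM totals left 206 members lower. Leaving out a replicate gave 2769 to 5121 called genes, 332 to 593 members higher and 206 to 391 lower, lowest without cHet replicate 2, and 3020 called genes without cKO replicate 2. The share with a counterpart was 47.5% in cKO and 56.6% in cHet with 50% of both peaks shared, 71.9% and 89.0% within 100 bases, 55.5% and 62.1% when the counterpart was also 5'UTR, 72.2% and 88.8% for peaks with adjusted p under 0.001, and 50.4% and 55.4% with spans under 1000 bases. The median difference, cKO minus cHet, was -0.059 with 50% of both shared (1087 pairs) and -0.052 with both annotated 5'UTR (1269 pairs), where counterparts were chosen anew under each rule, and 0.054 after subtracting the median of all pairs, -0.015 anchored on cHet peaks, -0.076 for mutual pairs and -0.092 for short spans. Among genes called with or without it, quantile normalization reversed the log2 change of Rpl23 (0.039), Rps24 (0.083), Eif5a (0.013), Ptbp1 (0.052), Atp5a1 (0.082) and Ctnnb1 (0.29, adjusted p = 0.0108). Of 147 named genes tested, 55 of 88 called kept the call under all alternatives run, and 33 lost it under at least 1. The causes were not tested. Exon blocks of peaks were not run, since the lists give none. Unknown depth limits the reading of low FPKM values.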
